A study of Mus musculus with 24 samples.

Results

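The complement components C1qa, C1qb, C1qc, C2, C3, C4b, C7 and Cfb were followed in the lung of healthy C57BL/6 mice across 5 postnatal ages. The rule that lists these 8 genes uses no measured value, although results of these data were known when they were picked. They were looked up through the RefSeq transcript that each array probe carries. A probe was found for 7 of them, among 19722 named genes, and C7 was not analysed here. Total RNA of whole lung was hybridised to 1-colour microarrays, on which the brightness of a spot follows the amount of its transcript. The labels give 5 biological replicates each at postnatal days 1, 4, 7 and 14, and 4 at day 42, labelled 6 weeks, so that 24 arrays were compared. All mice were untreated and of 1 strain, with no transgene or deletion named, and the labels give neither their sex nor whether each replicate was a single animal. P-values therefore measure the spread between these samples, some of which may be technical. Fetal lungs are named in the series title, but every sample label says postnatal.

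Complement is a cascade of blood and tissue-fluid proteins that tags microbes, dying cells and debris for removal. In its classical pathway C1q, a bundle of chains encoded by C1qa, C1qb and C1qc, binds a target and activates the proteases C1r and C1s, which cleave C4 and C2 to form an enzyme that splits C3. In the alternative pathway factor B, the product of Cfb, is cleaved by factor D while bound to split C3, and the new enzyme deposits more C3, so that the reaction amplifies itself. The liver makes most of the plasma proteins, C1q comes largely from macrophages and other myeloid cells, and epithelial cells and fibroblasts of the lung also make C3, C4 and factor B.

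RefSeq promoters were found for 4 of the 8 genes, C7 among them. The starts of the other 3 are shown, since these were the promoters available for the genes analysed here. Of them, C1qb and C1qc lie side by side and moved together, while C3 lies on another chromosome. Each sequence holds the 250 bases before the transcription start site on the minus strand of RefSeq's mouse assembly GRCm38.p6, written toward the gene. The C1qb window is at chr4:136886201-136886450, the C1qc window at chr4:136892915-136893164 and the C3 window at chr17:57228137-57228386. Capitals mark a match to 1 of 4 searched motifs.
C1qb: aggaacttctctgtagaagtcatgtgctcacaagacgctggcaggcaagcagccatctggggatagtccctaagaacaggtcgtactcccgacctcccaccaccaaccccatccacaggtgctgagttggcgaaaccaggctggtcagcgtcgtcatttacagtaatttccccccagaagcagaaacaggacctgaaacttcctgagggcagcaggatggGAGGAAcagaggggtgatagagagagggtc
C1qc: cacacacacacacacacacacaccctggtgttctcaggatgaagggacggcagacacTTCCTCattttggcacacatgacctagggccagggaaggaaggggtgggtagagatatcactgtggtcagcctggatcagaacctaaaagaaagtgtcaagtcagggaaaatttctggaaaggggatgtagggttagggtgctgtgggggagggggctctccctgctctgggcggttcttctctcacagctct
C3: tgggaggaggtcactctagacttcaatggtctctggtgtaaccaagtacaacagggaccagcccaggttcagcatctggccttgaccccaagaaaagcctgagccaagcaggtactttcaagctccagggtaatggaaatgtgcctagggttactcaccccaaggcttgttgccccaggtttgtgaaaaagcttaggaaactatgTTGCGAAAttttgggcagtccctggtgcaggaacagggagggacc
The core of the site of PU.1, a transcription factor of myeloid cells, was searched as GAGGAA on both strands. It lay 30 to 25 bases before the C1qb start and, on the opposite strand, where it reads TTCCTC, 193 to 188 bases before the C1qc start. The same motif was in 23.3% of 32851 mouse promoters of that length. A motif of the C/EBP type, TTGCNNAA, lay 45 to 38 bases before the C3 start and was in 9.56% of those promoters. The palindrome of STAT factors, TTCNNNGAA (7.02% of promoters), and the core of the interferon-stimulated response element, TTTCNNTTT (9.37%), had no match in the 3 windows. These matches describe the letters, not binding.

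Values are given as log2 of the processed signal minus the array's 75th percentile, so that 0 is the brightness of the spot at that percentile. They are called the normalised log2 signal below. Levels of different probes cannot be set against each other. The 75th percentile lay between 476.1 and 1652.7 intensity units and 50.4% to 79.7% of spots were well above background, a flag set by the scanner software. No spot was saturated, with 0 on all arrays. On each of 5 arrays the percentile was at most 979.3 and at most 56.0% of spots were well above background, against at least 995.5 and 57.0% on each of the other 19. The 5 arrays come from day 1 (replicates 4 and 5), from day 4 (1 and 3) and from day 42 (4). They stand apart on the first principal component (49.8% of the variance), and values without them are given beside the main results. The arrays were on 3 slides of 8, each scanned once, and every age was on all 3 slides. Among sex-linked transcripts, Xist was well above background on 2, 2, 0, 3 and 3 arrays at days 1, 4, 7, 14 and 42, and the Y-linked Ddx3y on 1, 1, 5, 3 and 0. Days 7 and 42, the pair of ages in which all 7 members differ below, were thus the most unlike in these transcripts, and the part of sex was not tested. Neither transcript was well above background on the 5 arrays that stand apart.

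All 7 complement genes were well above background on all 24 arrays, and all 7 differed between ages. The limma moderated F-test over all ages, with Benjamini-Hochberg adjustment over the 15893 genes tested, passed the threshold of 0.05 for 7 of 7, against 31.8% of all genes. Its adjusted p was 5.80e-08 for C4b, 2.54e-05 for C3, 3.50e-05 for Cfb, 0.00323 for C2, 0.0246 for C1qc, 0.0299 for C1qa and 0.0365 for C1qb. The 3 C1q genes were the least secure of these, since without day 42 replicate 1 or without day 42 replicate 4 only 4 genes passed. In whole lung, a change in the number of cells of a type and a change in the RNA of each cell cannot be told apart.

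In the analysis of all arrays, the differences that passed the test all involved day 14 or day 42. Between day 1 and day 4, 0 of 7 genes passed limma's test (0.0629% of all genes), with an adjusted p of 1.00 for every member. Between day 4 and day 7, 0 of 7 passed (0.00629% of all genes). At an unadjusted p under 0.05, 817 of all genes differed in the first of these comparisons and 1347 in the second. Day 7 over day 1 missed the threshold, at -1.10 for Cfb (limma adjusted p = 0.107) and -0.62 for C3 (adjusted p = 0.185). Without day 1 replicate 2 Cfb passed there (-1.38, adjusted p = 0.0332). Without the 5 arrays the Cfb and C3 differences were -0.59 and -0.36. C3, C4b and Cfb rose between day 7 and day 14, as 6.04% of all genes did, and the same 3 genes rose again between day 14 and day 42, as 2.18% of all genes did. Against day 1, 4 of 7 members were higher at day 42 (13% of all genes): C4b by 11.2-fold, Cfb by 3.66-fold, C3 by 3.13-fold and C2 by 2.89-fold. None was lower, with 0 of 7 in each of these comparisons. The medians of the 7 log2 differences were 0.01, -0.62, 0.89, 1.14 and 1.53 for day 4 over 1, 7 over 4, 14 over 7, 42 over 14 and 42 over 1, against -0.0014, -0.23, 0.02, 0.07 and -0.06 over all genes tested.

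**Figure D1:**
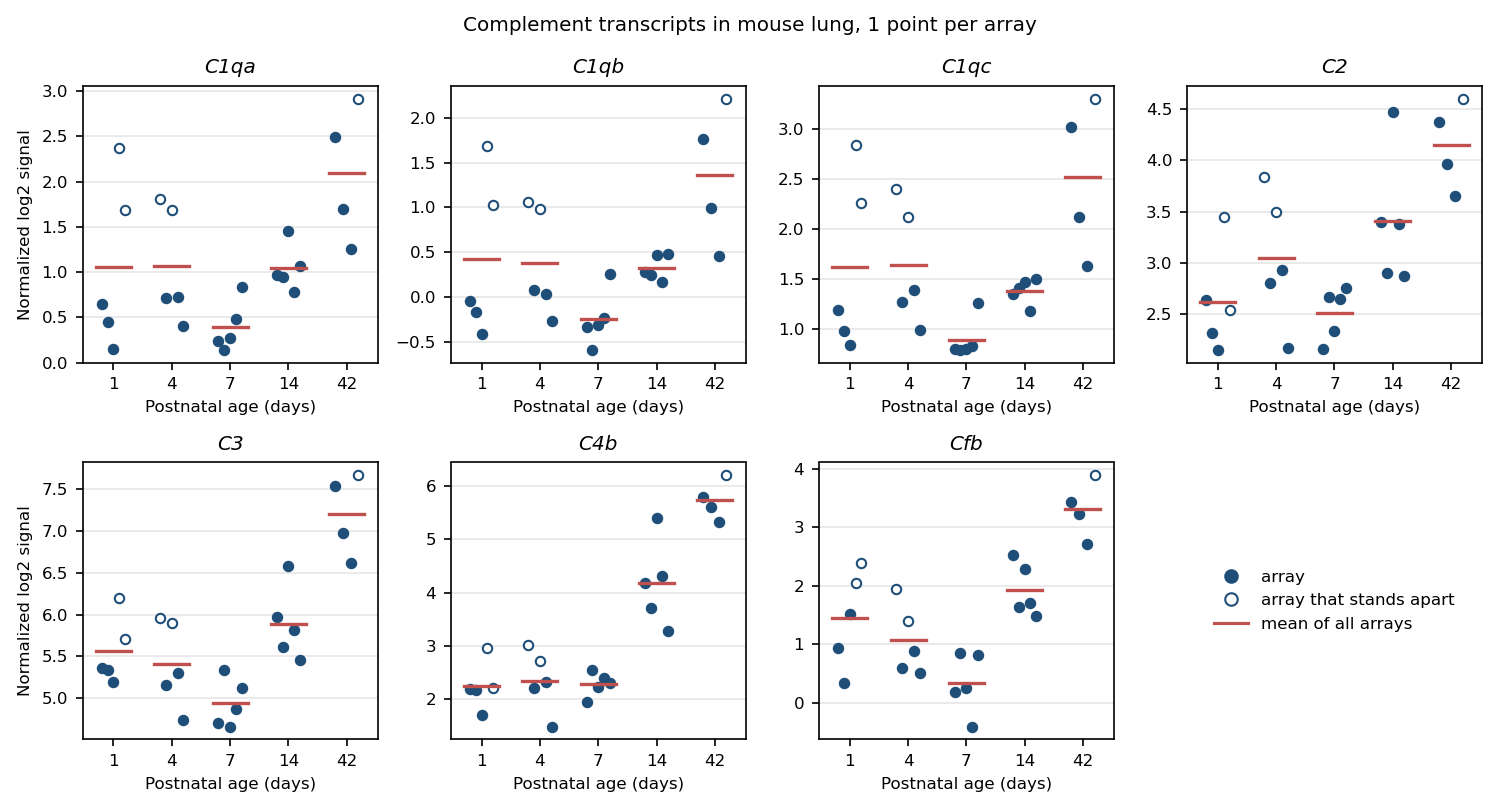
Normalised log2 signal (vertical axis) of 7 complement genes on each of 24 arrays, by postnatal age in days (horizontal axis), with a red line for the mean of each age and open points for the 5 arrays that stand apart. C4b lies between 1.48 and 3.01 on every array of days 1 to 7 and between 5.32 and 6.21 at day 42, whereas the C1q genes are lowest on average at day 7.

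The C1q genes encode the 3 chains of the recognition molecule of the classical pathway. C1qa measured 0.65, 0.44, 0.15, 2.38 and 1.69 on the normalised log2 scale at day 1, then 1.81, 0.71, 1.68, 0.73 and 0.40 at day 4 and 0.24, 0.14, 0.27, 0.48 and 0.83 at day 7, with arrays in order of replicate number. It measured 0.96, 0.94, 1.45, 0.78 and 1.07 at day 14 and 2.50, 1.69, 1.25 and 2.92 at day 42. The highest 2 values of day 1, the highest 2 of day 4 and the highest of day 42 are those of the 5 arrays that stand apart, and days 1 and 42 overlapped. The mean was 1.06 ± 0.94 at day 1, 1.07 ± 0.63 at day 4, 0.39 ± 0.28 at day 7, 1.04 ± 0.25 at day 14 (SD, n = 5 each) and 2.09 ± 0.75 at day 42 (n = 4). Without the 5 arrays the means were 0.41, 0.61, 0.39, 1.04 and 1.82 in order of age, so that day 1 then lay level with day 7, and day 4 stood 0.22 above it.

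Only day 42 against day 7 passed the test for the C1q genes in the analysis of all arrays, of the 10 pairs of ages. In that pair all 7 members were higher (15.2% of all genes): C1qa by 1.70 ± 0.40 log2 (SE, 3.24-fold, limma adjusted p = 0.00273), C1qb by 1.60 ± 0.39 (3.04-fold, adjusted p = 0.00349) and C1qc by 1.63 ± 0.38 (3.09-fold, adjusted p = 0.00249). Without the 5 arrays these differences were 1.42, 1.32 and 1.36. Day 42 over day 1 missed the threshold, with 1.03 ± 0.40 for C1qa (limma adjusted p = 0.0621), 0.94 ± 0.39 for C1qb (adjusted p = 0.0822) and 0.89 ± 0.38 for C1qc (adjusted p = 0.0891). Without the 5 arrays all 3 passed, with differences of 1.40 (limma adjusted p = 0.000309), 1.28 (adjusted p = 0.000556) and 1.25 (adjusted p = 0.000496), and so did day 42 over day 14, with 0.77 (adjusted p = 0.0349), 0.75 (adjusted p = 0.0371) and 0.88 (adjusted p = 0.0133). Of all 15893 genes, 3584 were then higher at day 42 over day 1 and 1069 at day 42 over day 14. Day 14 over day 7 was 0.65 for C1qa, 0.57 for C1qb and 0.49 for C1qc, with limma adjusted p of 0.342, 0.414 and 0.501. Neither of those ages holds an array that stands apart, and without the 5 arrays, which enter the shared estimate of the spread, adjusted p was 0.0170, 0.0289 and 0.0504.

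C1qa, C1qb and C1qc moved as a unit from array to array. C1qc measured 1.19, 0.98, 0.84, 2.84 and 2.26 at day 1, 2.40, 1.27, 2.12, 1.38 and 0.99 at day 4 and 0.79, 0.79, 0.79, 0.82 and 1.26 at day 7. It measured 1.34, 1.41, 1.47, 1.17 and 1.50 at day 14 and 3.02, 2.12, 1.63 and 3.30 at day 42. The high arrays were the ones that were high for C1qa, and day 42 lay above day 14 on every array. The C1qb probe lay between -0.59 and 0.25 at day 7 and between 0.45 and 2.21 at day 42. Within an array, the C1qa minus C1qb difference in normalised log2 signal had medians of 0.67, 0.69, 0.58, 0.68 and 0.72 in order of age and stayed between 0.56 and 0.99, while each gene alone spanned more than that within day 1. After each gene's own mean was removed, C1qa and C1qb differed by a root mean square of 0.0879 log2 over the 24 arrays and C1qc and C1qb by 0.107. The C1qc probe was spotted 10 times per array, and the SD among those spots had a median of 0.0399 log2. The genes share arrays and RNA, so these values are descriptions.

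C4b encodes complement C4, which C1s and the lectin-pathway protease cleave so that its larger fragment attaches to the target. Mice carry a near-identical paralogue, C4a, for which no probe was found by name, and the signal of the C4b probe may include it. The normalised log2 signal was 2.19, 2.18, 1.71, 2.97 and 2.20 at day 1, 3.01, 2.21, 2.71, 2.33 and 1.48 at day 4 and 1.94, 2.55, 2.23, 2.39 and 2.31 at day 7. At day 14 it was 4.18, 3.72, 5.39, 4.31 and 3.29, and at day 42 it was 5.80, 5.61, 5.32 and 6.21. Every array of days 14 and 42 lay above every array of days 1 to 7, and day 14 replicate 3 lay within the range of day 42. C4b averaged 4.18 ± 0.79 at day 14, against 2.29 ± 0.23 at day 7 (SD, n = 5 each), a rise of 1.89 ± 0.32 log2 (SE, 3.71-fold, limma adjusted p = 0.000354). At day 42 it averaged 5.74 ± 0.37 (n = 4), a further rise of 1.56 ± 0.34 (2.95-fold, adjusted p = 0.0107), and day 42 over day 1 was 3.49 ± 0.34 (11.2-fold, adjusted p = 7.91e-08). Without the 5 arrays these last 2 differences were 1.40 and 3.55. Each of these steps had the same sign within every slide, but many within-slide values rest on a single array of an age. On slide 1, day 42 was replicate 1 alone and day 14 was replicate 1 alone. On slide 2, day 7 was replicate 2 alone. On slide 3, day 1 was replicate 3 alone and day 42 was replicate 4 alone, which stands apart. The same limit holds for the within-slide values of C2, C3 and Cfb below. Within the slides taken 1 at a time day 14 over day 7 was 2.05, 1.46 and 2.03, day 42 over day 14 was 1.62, 1.46 and 1.87, and day 42 over day 1 was 3.22, 3.28 and 4.50. C4b was the only member that passed the test at day 14 against day 1 (1.93, limma adjusted p = 0.000126, against 10.9% of all genes) and against day 4 (1.83, adjusted p = 0.000328, against 6.76%). Without the 5 arrays C1qa (0.63), C2 (1.04) and Cfb (1.00) passed as well against day 1, and C3 (0.83) and Cfb (1.26) against day 4. Of all 15893 genes, 6563 and 5490 then passed in either direction. With all arrays C4b passed in 7 of the 10 pairs of ages, that is in all but the 3 pairs among days 1, 4 and 7. One of those 3, day 7 against day 1, was passed by 0 of 7 members (2.71% of all genes).

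C2, the protease subunit that joins C4 in the classical enzyme, changed less. On the normalised log2 scale it measured 2.64, 2.31, 2.15, 3.44 and 2.54 at day 1, 3.84, 2.81, 3.50, 2.93 and 2.17 at day 4 and 2.16, 2.66, 2.33, 2.64 and 2.75 at day 7. It measured 3.40, 2.90, 4.47, 3.37 and 2.87 at day 14 and 4.37, 3.97, 3.65 and 4.60 at day 42. Day 14 did not overlap day 7, yet the difference of 0.89 ± 0.32 log2 missed the threshold (limma adjusted p = 0.0774), and it passed without the 5 arrays (adjusted p = 0.0119). C2 averaged 4.15 ± 0.42 at day 42 (n = 4), against 2.62 ± 0.50 at day 1 (SD, n = 5), a rise of 1.53 ± 0.34 (SE, 2.89-fold, limma adjusted p = 0.00143), with 1.63 without the 5 arrays and 1.33, 1.38 and 2.46 within slides. Day 42 over day 14 was 0.74 ± 0.34 (limma adjusted p = 0.310), and in order of mean level C2 therefore had no passed step between neighbouring ages.

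C3 is the protein on which all complement pathways converge, and its fragments mark targets and attract leukocytes. The C3 probe measured 5.36, 5.33, 5.19, 6.20 and 5.71 on the normalised log2 scale at day 1, 5.96, 5.16, 5.90, 5.29 and 4.73 at day 4 and 4.70, 5.33, 4.66, 4.87 and 5.12 at day 7. It measured 5.97, 5.61, 6.58, 5.82 and 5.46 at day 14 and 7.54, 6.98, 6.62 and 7.67 at day 42. Day 42 lay above every array of all younger ages, by little above day 14 replicate 3, which was the array with the largest share of spots well above background, and day 14 lay above day 7. C3 averaged 5.89 ± 0.43 at day 14, against 4.94 ± 0.29 at day 7 (SD, n = 5 each), a rise of 0.95 ± 0.27 (SE, 1.93-fold, limma adjusted p = 0.0223). This step passed no longer when day 14 replicate 3 was left out (0.78, adjusted p = 0.0834), nor without day 14 replicate 1 (adjusted p = 0.0541), day 7 replicate 1 (0.0607) or day 7 replicate 3 (0.0625). At day 42 C3 averaged 7.20 ± 0.49 (n = 4), a rise over day 14 of 1.32 ± 0.29 (2.49-fold, limma adjusted p = 0.0101) and over day 1 of 1.64 ± 0.29 (3.13-fold, adjusted p = 0.000124). Without the 5 arrays day 42 over day 14 was 1.16 and day 42 over day 1 was 1.75, and both still passed. Both steps after day 7 kept their sign on every slide. Within slides day 14 over day 7 was 1.06, 0.38 and 1.26, and day 42 over day 14 was 1.57, 1.09 and 1.65. A second C3 probe gave 1.02, 1.30 and 1.57 for the same 3 differences, with limma adjusted p over all named probes of 0.0301, 0.0251 and 0.000694. The brighter C3 probe was spotted 10 times per array with a median SD among spots of 0.0326 log2.

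Cfb encodes factor B, the protease of the alternative pathway. Its normalised log2 signal was 0.93, 0.33, 1.52, 2.04 and 2.39 at day 1, 1.94, 0.59, 1.39, 0.89 and 0.51 at day 4 and 0.18, 0.86, 0.25, -0.41 and 0.82 at day 7. At day 14 it was 2.52, 1.64, 2.28, 1.70 and 1.48, and at day 42 it was 3.43, 3.23, 2.71 and 3.89. Day 7 was the lowest age on average, day 14 lay above it on every array, and day 42 lay above every array of all other ages. Cfb averaged 1.93 ± 0.45 at day 14, against 0.34 ± 0.52 at day 7 (SD, n = 5 each), a rise of 1.59 ± 0.36 (SE, 3.00-fold, limma adjusted p = 0.00476), with 2.01, 0.82 and 1.96 within slides. At day 42 it averaged 3.32 ± 0.49 (n = 4), a rise over day 14 of 1.39 ± 0.39 (2.62-fold, adjusted p = 0.0465), with 0.92, 1.30 and 2.01 within slides and 1.20 (adjusted p = 0.0180) without the 5 arrays. That call lay at the threshold, and it passed in 19 of 38 other settings. Over day 1 the rise was 1.87 ± 0.39 (3.66-fold, limma adjusted p = 0.000733), and 2.20 without the 5 arrays.

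**Figure D2:**
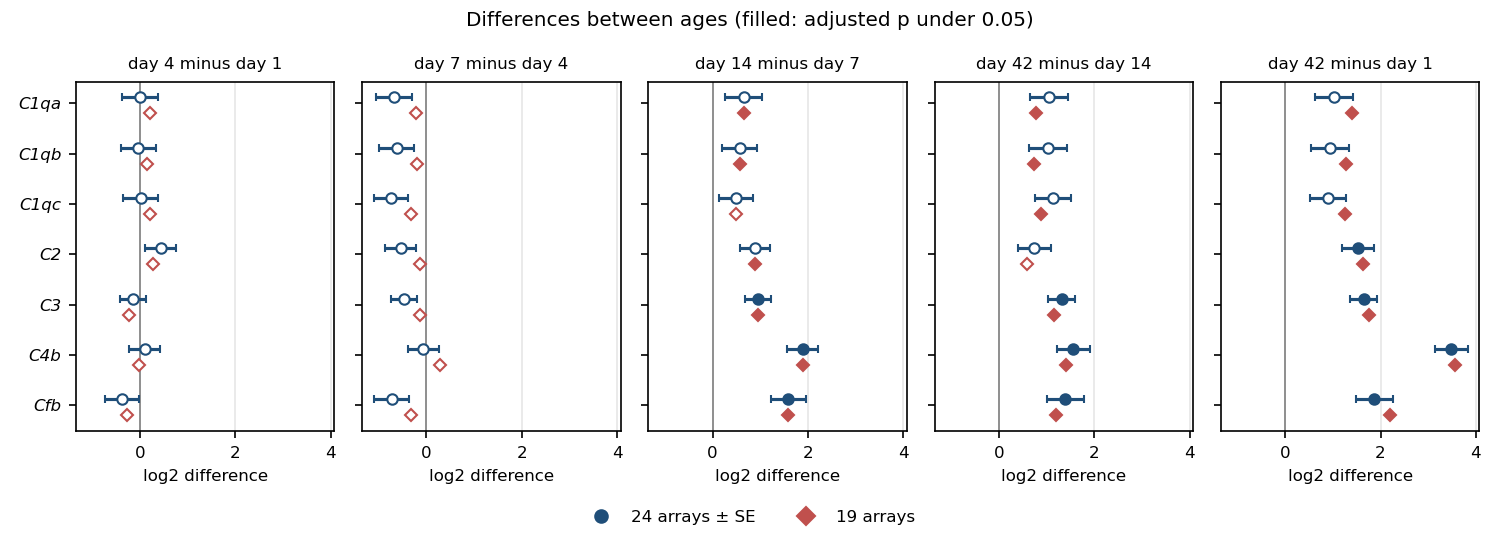
Log2 differences between ages (horizontal axis, later minus earlier) for 7 complement genes, as circles with standard errors for all 24 arrays and as diamonds for the 19 arrays without those that stand apart, filled where limma's adjusted p was under 0.05. With all arrays C3, C4b and Cfb pass for day 14 over day 7 and for day 42 over day 14, and none passes among days 1, 4 and 7.

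In order of mean level, day 42 was highest for all 7 genes. For C3 and Cfb it stood above the age next to it, day 14, by the test, and for C4b likewise. Days 1, 4 and 7 differed by the test for no member, and for C4b their means were 2.25, 2.35 and 2.29. For C1qa, C1qb and C1qc the ages between the lowest, day 7, and the highest, day 42, differed from neither. Day 42 over day 4 passed for 4 of 7 genes (11.4% of all genes), which were C2 at 1.10 (limma adjusted p = 0.0198), C3 at 1.79 (adjusted p = 5.82e-05), C4b at 3.39 (adjusted p = 2.24e-07) and Cfb at 2.25 (adjusted p = 0.000124). C1qa (1.20), C1qb (1.12) and C1qc (1.04) passed there as well without the 5 arrays, where 7217 of all 15893 genes passed in either direction. These comparisons share arrays.

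Differences between members on the same array are described by their medians and ranges at each age, and their change with age was not tested. The C4b minus C3 difference in normalised log2 signal within an array had medians of -3.23, -2.97, -2.76, -1.79 and -1.42 in order of age. Its size has no meaning between probes, but its change does not depend on how an array was scaled. It lay between -2.17 and -1.18 at day 14, above its range of -2.82 to -2.42 at day 7, and between -1.74 and -1.30 at day 42, against -3.51 to -3.16 at day 1. The C2 minus C3 difference had medians of -3.02, -2.36, -2.37, -2.57 and -3.04, so that days 4 to 14 lay above both day 1 and day 42 without overlap. Cfb minus C3 had medians of -4.16, -4.40, -4.48, -3.98 and -3.85. Days 14 and 42 lay above day 7 without overlap, and both overlapped days 1 and 4. C1qa minus C3 had medians of -4.72, -4.33, -4.39, -5.01 and -5.16, and of the 10 pairs of ages only days 42 and 4 did not overlap. For this pair of genes the arrays that stand apart gave the highest values of their ages. These were -3.82 and -4.02 at day 1, -4.16 and -4.22 at day 4 and -4.75 at day 42.

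**Figure D3:**
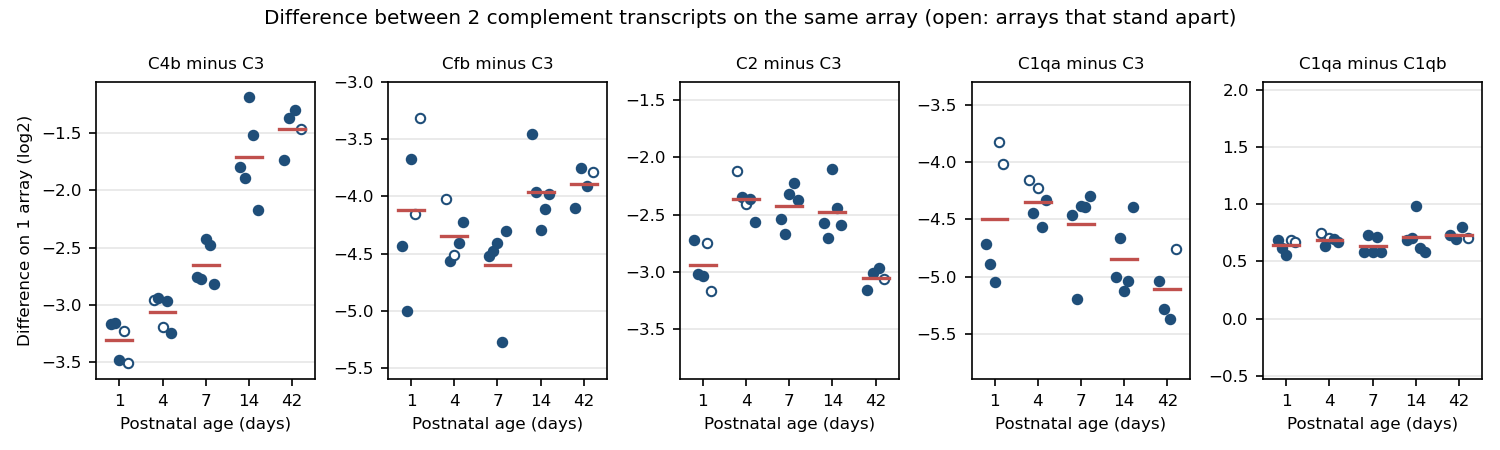
Difference in normalised log2 signal between pairs of complement genes on the same array (vertical axis), by postnatal age in days, with 1 point per array, open where it stands apart, and a red line for the mean. C4b minus C3 lies at -2.17 or above on every array of days 14 and 42 and at -2.42 or below on every array of days 1 to 7, while C1qa minus C1qb stays between 0.56 and 0.99.

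Genes with the most similar profiles were listed by the root mean square difference from each member over the 24 arrays, after each gene's own mean was removed. Over all genes tested the median of this difference lay between 0.747 and 1.51 for the 7 members. For C1qa the nearest other genes were Kcnn4, a calcium-activated potassium channel (0.173), and Arhgdib, a signalling regulator of blood cells (0.227). Kcnn4 and Arhgdib were also nearest to C1qb (0.197 and 0.217), and for C1qc they were Acss2, an acetyl-CoA synthetase (0.218), and Kcnn4 (0.226). C2 was nearest to the C1r genes C1ra (0.283) and C1rb (0.296), and C3 to Ldhd, a lactate dehydrogenase (0.224), and Apol9a (0.269). C4b was nearest to Apol9b (0.414) and to Igfbp6, a binding protein of insulin-like growth factors (0.422), and Cfb to Oasl1, an interferon-induced gene (0.330), and Tmprss13, a membrane protease (0.356). Among the members themselves, C3 was nearest to C2 (0.322), and C4b to C3 (0.746). When the 5 arrays were left out, the gene listed first stayed first for 6 of the 7 members, the exception being C2, for which C1ra ranked 5th and C1rb 10th. Of the genes listed second, only Igfbp6 stayed second for C4b, and the others ranked 5th to 10th.

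The rest of the pathway was read from a list of 41 other complement genes, 40 of them on the array and 32 tested. Untested were Mbl2, Fcnb, Masp1, Masp2, C8a, C8b, C9 and Cd59b, which were well above background on fewer than 4 arrays, among them lectins, their proteases and terminal components. Between day 7 and day 14, 10 of the 32 rose and 0 fell, beside 6.04% of all genes higher, and at day 42 over day 1, 16 rose and 1 fell, beside 13% of all genes higher. The list had medians of 0.54 and 0.96 beside 0.02 and -0.06 over all genes. Between day 14 and day 42, where 2.18% of all genes were higher, 0 of 32 rose and 0 fell in limma's test. With the 5 arrays left out, 17 rose and 1 fell at day 14 over day 7, 8 rose and 1 fell at day 42 over day 14, and 21 rose and 1 fell at day 42 over day 1. Of all 15893 genes, 3253, 1069 and 3584 were then higher and 2870, 1083 and 3823 lower, in the same order. Genes of the list are described by role below.

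C1r and C1s are the proteases that C1q activates. C1s1 rose by 1.19 ± 0.18 log2 (SE) at day 14 over day 7 (limma adjusted p = 9.75e-05) and by 2.15 ± 0.19 at day 42 over day 1 (adjusted p = 1.97e-08), and C1ra rose by 1.08 ± 0.26 (adjusted p = 0.00669) and 1.58 ± 0.27 (adjusted p = 0.000113). Their close copies C1s2 and C1rb gave 1.10 and 1.00 for the first difference and 2.03 and 1.61 for the second, and copies this alike may share signal. So 4 of 8 tested initiation genes rose at day 14 over day 7, and 5 rose and 1 fell at day 42 over day 1. Colec10, a soluble collectin, fell by 2.70 on the log2 scale (limma adjusted p = 0.0178) and was well above background on 3 of the 4 day 42 arrays. Mbl1, a mannose-binding lectin, rose by 1.48 over day 1 (adjusted p = 0.00278), and was well above background on 3 of the 5 day 1 arrays.

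Factor D, encoded by Cfd, is the protease that cleaves factor B, and it is also made in quantity by fat cells, from which its other name, adipsin, comes. Cfd rose by 4.81 ± 1.28 log2 (SE) at day 14 over day 7 (limma adjusted p = 0.0144). At day 42 over day 1 it rose by 10.80 ± 1.36 (adjusted p = 2.33e-06), but only 1 of the 5 day 1 arrays was well above background, so that the size is uncertain. Hc, which encodes C5, rose by 0.56 ± 0.13 (adjusted p = 0.00580) and 0.80 ± 0.14 (adjusted p = 0.000116), and properdin, Cfp, which stabilises the alternative enzyme, gave 0.52 (adjusted p = 0.351) and 0.68 (adjusted p = 0.131). Of the pore-forming components C6 rose by 0.93 ± 0.26 (adjusted p = 0.0207) and 1.01 ± 0.28 (adjusted p = 0.00825).

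Regulators hold the cascade in check. Factor I, Cfi, which degrades C3b, gave a log2 difference of -0.48 at day 14 over day 7 (limma adjusted p = 0.706) and 0.14 at day 42 over day 1 (adjusted p = 0.870). At day 7 Cfi ranged from -3.48 to 0.50 around a mean of -2.45 (SD 1.67), against -3.34 to -2.24 at day 14. The sign of the first difference is therefore uncertain. Of 6 fluid regulators 4 rose at day 42 over day 1, among them the C1 inhibitor Serping1 by 0.95 (adjusted p = 0.0246), clusterin, Clu, by 1.23 (adjusted p = 0.00972) and vitronectin, Vtn, by 2.07 (adjusted p = 0.000690). Among 4 tested membrane regulators 0 rose at day 14 over day 7 and 1, Cr1l, rose at day 42 over day 1, by 0.45 (adjusted p = 0.0328). Cr1l and Cd55, which speeds the decay of the C3-splitting enzymes, passed in both comparisons without the 5 arrays, Cd55 by 0.45 (limma adjusted p = 0.0445) and 0.97 (adjusted p = 0.00165). Of 9 receptors 2 rose at day 14 over day 7, the B cell receptor for C3 fragments Cr2 by 1.87 (adjusted p = 0.0162) and the C5a receptor C5ar2 by 0.57 (adjusted p = 0.0291). C3ar1, the receptor of the C3a fragment, gave 0.25 (adjusted p = 0.486) and 0.48 at day 42 over day 1 (adjusted p = 0.0671), and C5ar1 gave 0.69 (adjusted p = 0.137) and 0.45 (adjusted p = 0.318). C5ar1 passed in both comparisons without the 5 arrays (0.69, adjusted p = 0.00178, and 0.69, adjusted p = 0.00751), and C3ar1 (0.53, adjusted p = 0.0292) and the properdin gene Cfp (1.09, adjusted p = 0.00402) then passed at day 42 over day 1. Receptors that passed were then 5 and 6 of 9.

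**Figure D4:**
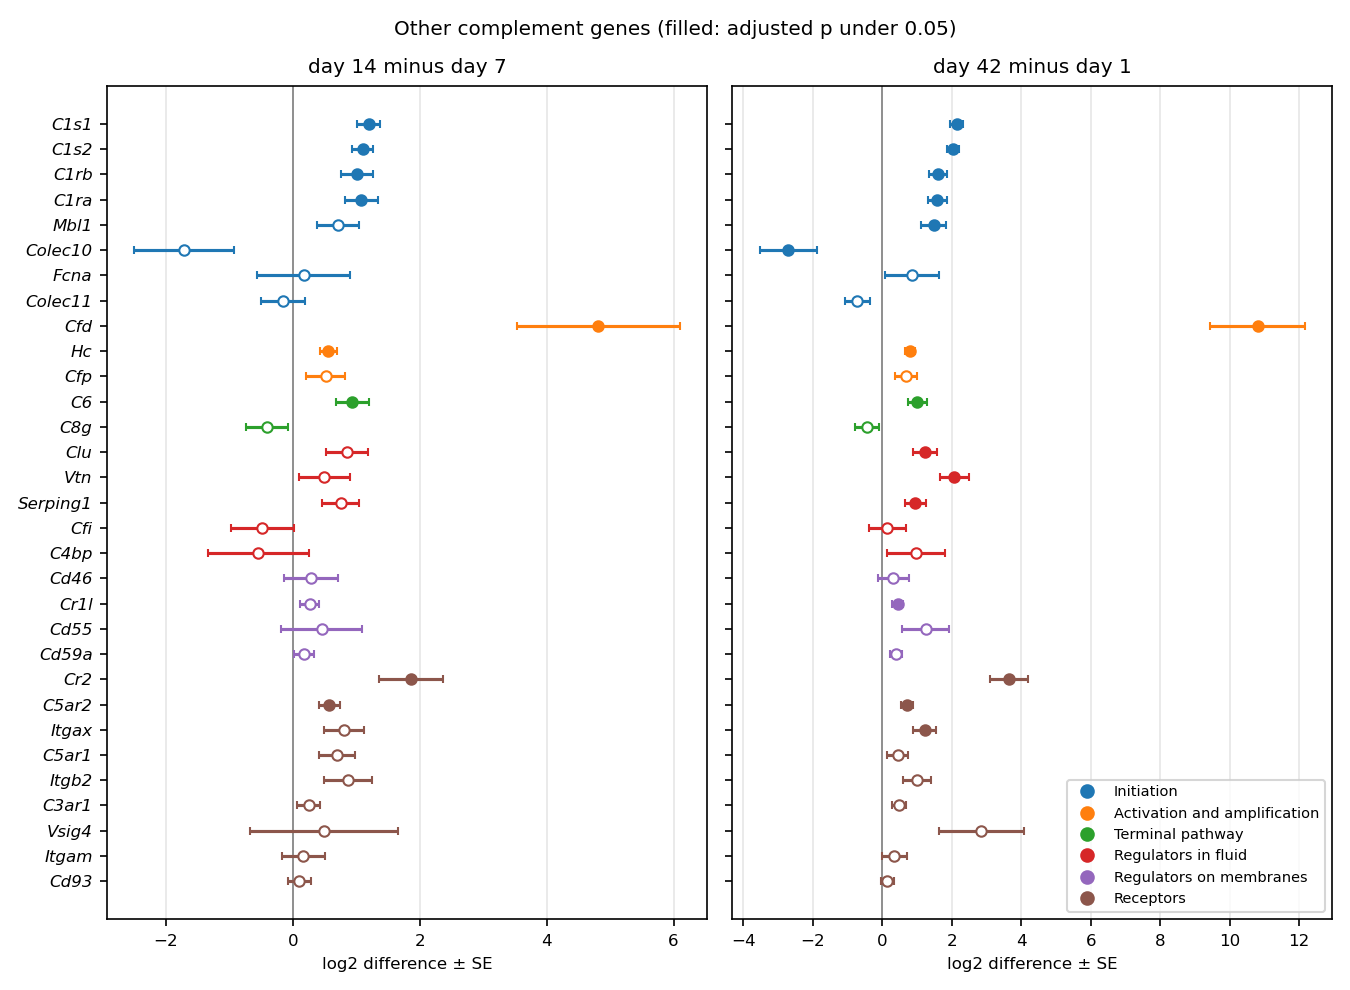
Log2 differences of the other complement genes by role (colours; horizontal axis, with standard errors) for day 14 over day 7 and day 42 over day 1, filled where limma's adjusted p over all 24 arrays was under 0.05. C1s1, C1ra, Cfd and C6 pass in both comparisons, whereas Cfi passes in neither.

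Markers of cell types that make complement, and genes of inducing programmes, also moved with age, and their part in the members' changes was not tested. For the counts of these lists, 6.04%, 2.18% and 13% of all genes were higher at day 14 over day 7, day 42 over day 14 and day 42 over day 1. In the same order 880, 240 and 2184 of 15893 genes were lower. Of 9 macrophage markers on the array, 1 rose at day 14 over day 7, 0 at day 42 over day 14 and 2 at day 42 over day 1. Their summed level, in multiples of the array's 75th percentile, ranged over 39.4 to 119 at day 1, 43.9 to 85.7 at day 4, 38.6 to 51.1 at day 7, 51.3 to 58.8 at day 14 and 67.0 to 159 at day 42. These ranges were widest where an age held arrays that stand apart, as were those of the C1q genes. A summed level weighs the brightest probes of its list most, so that it need not follow the other genes. Among the macrophage markers Csf1r was brightest, with a mean normalised log2 signal of 4.93, against 2.84 for the next, Tyrobp. Of 7 alveolar macrophage markers 5 rose at day 14 over day 7 and all 7 at day 42 over day 1, and their summed level was 25.7 to 49.3 at day 7, 115 to 152 at day 14 and 178 to 215 at day 42. Of 10 fibroblast markers 3 rose and 5 fell at day 42 over day 1, and of 6 alveolar type 2 cell markers 1 rose at day 14 over day 7 and 0 at day 42 over day 1. Among the other marker lists, at day 42 over day 1, 2 of 5 mesothelial markers rose and 1 fell, 2 of 3 airway markers rose, and 0 of 5 neutrophil markers rose and 2 fell. On the 19 other arrays 5, 4 and 7 of the 9 macrophage markers rose at day 14 over day 7, day 42 over day 14 and day 42 over day 1, and 4 alveolar type 2 cell markers rose in the first and last of these. Of all 15893 genes, 3253, 1069 and 3584 were higher on those 19 arrays, in the same order.

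Hepatocyte markers were read because liver is the main source of plasma complement. Of the 8, Alb, Apoa2 and Ahsg were well above background on 24 arrays, Fgg on 19, Fgb on 6, Ttr on 5, and Apoa1 and Fga on 3 each. Apoa2 was brightest, with a mean normalised log2 signal of 2.42, against -2.24 for the next, Ahsg. The summed level of all 8 lay between 3.03 and 11.6 at days 1, 4, 14 and 42 and reached 136 at day 7, where its median was 5.31. Cfi also ranged most widely at day 7, up to 0.50 in normalised log2 signal. Whether both high values came from the same array was not tested. Of the 6 hepatocyte markers tested, 0 rose at day 14 over day 7 and 1 at day 42 over day 1. Of 12 interferon-stimulated genes 8 rose at day 14 over day 7, 1 rose and 1 fell at day 42 over day 14, and 9 rose and 1 fell at day 42 over day 1. All 8 targets of interferon-gamma rose at day 42 over day 1, and 2 did at day 14 over day 7, or 7 without the 5 arrays. Of 7 acute-phase genes 4 rose at day 14 over day 7, 0 at day 42 over day 14 and 3 at day 42 over day 1, and without the 5 arrays these were 5, 3 and 5. The summed level of the interferon-gamma targets was 23.3 to 28.9 at day 7, 34.5 to 54.0 at day 14 and 55.7 to 137 at day 42, and that of the acute-phase genes 73.6 to 127, 149 to 241 and 272 to 645. These sums weigh Irf1 and Hp most. Irf1 had a mean normalised log2 signal of 4.63, against 2.89 for the next target, Psmb8. Hp had 6.84, against 4.97 for the next acute-phase gene, Cebpd.

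**Figure D5:**
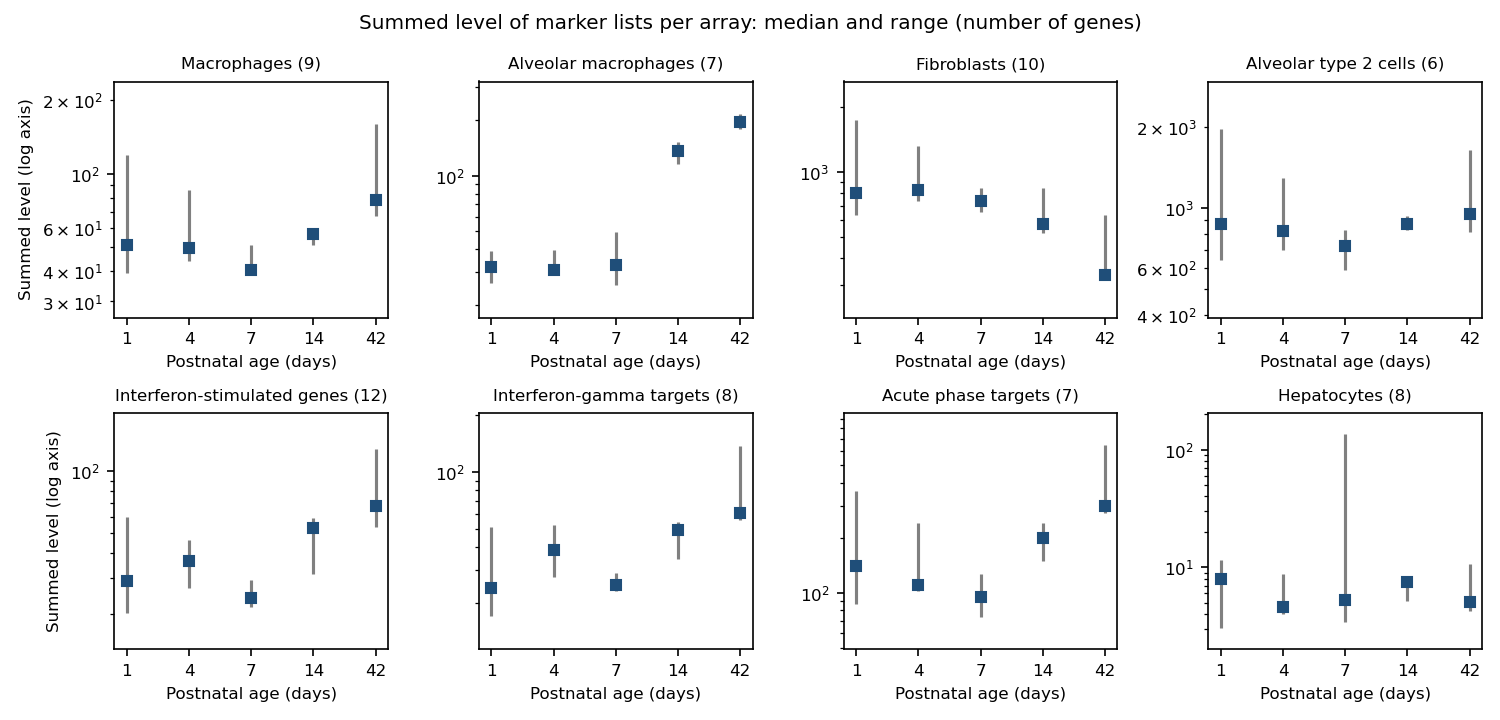
Summed level of 8 marker or programme lists (vertical axis, log scale, in multiples of the array's 75th percentile) by postnatal age in days, with squares for the median and lines for the range over the arrays of an age. Alveolar macrophage markers lie at or below 49.3 on every array of days 1 to 7 and at or above 115 at days 14 and 42, and hepatocyte markers reach 136 at day 7, where their median is 5.31. Each sum weighs the brightest probes of its list most.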

How the data were processed

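Each scan gives a processed intensity per spot, with background subtracted and spatial trend removed by Agilent Feature Extraction, whose version is 10.7.3.1 in the file headers and 10.7.1.1 in the submitters' processing notes. Median spot and background intensities and spot flags are further columns, per the file headers. The authors also deposited log2 values for these arrays, normalized by an unstated method, which served as an alternative.

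Control and non-uniform spots were excluded, replicate spots averaged on the log2 scale, and the 75th percentile of each array subtracted. Probes took gene names from their RefSeq transcripts (GRCm38.p6), which named 26056 of 55681. The brightest probe stood for a gene, and the gene was tested where the scanner software set that probe above background on 4 or more arrays. The ages were set against each other in limma 3.58.1 (R 4.3.3), with a mean for each age, all 24 arrays, and Benjamini-Hochberg adjustment over 15893 genes per comparison at a threshold of 0.05. The script was tested on simulated data. The number of arrays limits the precision.

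The members, the lists and the rule for naming genes were chosen with earlier results of these data known. By that rule all members are named, then neighbours of members in the cascade, the other complement genes with the smallest F-test p, and the 2 genes most like each member. It was not followed throughout. The receptor gene Itgax, 10th of the other complement genes by F-test (adjusted p = 0.00118), is not described above, whereas Clu, 11th, is. Itgax rose by 1.22 at day 42 over day 1 (limma adjusted p = 0.00796). For 1 day 14 sample the title and the source name give different replicate numbers, and the title was used. Replicate numbers are shared between ages, but same-numbered arrays did not deviate together (mean correlation -0.023 over 46 pairs, against 0.024 over 184 others). Values of 1 gene of the complement list are not reported here, though it is counted in the list. Alternatives covered background correction, scaling, the authors' values, filters, probes, blocks, array weights, and arrays left out.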

Additional observations from a re-analysis of the deposited data

Results flagged for a closer look

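C1qc at day 7 stood out through 1 array. Its normalised log2 signal was 1.26 on day 7 replicate 5, whereas the other 4 arrays of that age lay between 0.79 and 0.82. The gap to the nearest array made up 0.921 of the range of that age, past Dixon's limit for 5 samples. C1qa and C1qb were also highest on that array among those of day 7, at 0.83 and 0.25. Chance marks about 1 in 20 groups by this measure, and 1 of 35 groups of a gene and an age was marked here.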

How the results depend on the processing

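Over 14 alternatives other than leaving out single replicates, 879 of 980 differences between ages of the 7 members kept their side of the threshold, 48 of them uncalled values that changed sign. A further 89 passed that had not, 9 passed no longer and 3 turned. Counts of members past limma's adjusted threshold moved as follows. At day 14 over day 7, 3 passed as reported, 7 with the compared ages alone, 7 with array weights, 6 without the 5 arrays that stand apart and 5 without them and day 14 replicate 5. At day 42 over day 14, 3 passed as reported, 0 with the compared ages alone, 7 with array weights, and 6 each with the authors' table, without the 5 arrays and without them and day 14 replicate 5. With the compared ages alone adjusted p there was 0.0602 for C3, 0.0851 for C4b and 0.0529 for Cfb. At day 42 over day 1, 4 passed as reported and 7 with quantile normalization, the authors' table, array weights, or without the 5 or 6 arrays. At day 7 over day 4, array weights passed 1, C1qc, which was lower (adjusted p = 0.0488). Turned, from values near 0, were C1qa at day 14 over day 1, with 0.54 under array weights and 0.63 without the 5 arrays, and C1qa at day 14 over day 4, with 0.36 under array weights.

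With single replicates left out, the count over any age lay between 4 and 7, that at day 14 over day 7 between 2 and 4, that at day 42 over day 14 between 2 and 4 and that at day 42 over day 1 between 4 and 7. The 7 was reached without day 1 replicate 4 or without day 42 replicate 3. Cfb at day 42 over day 14 passed no longer with the replicate block (1.42, adjusted p = 0.0764), the slide block (1.39, adjusted p = 0.0532) or no filter (adjusted p = 0.0597). The replicate block changed no other call of a member, and 4 of 24 arrays correlated best with their own number. Under median scaling the median of all genes was -0.37 at day 7 over day 4, -0.15 at day 14 over day 7 and 0.28 at day 42 over day 14. C3 at day 14 over day 7 (0.78, adjusted p = 0.147) and C2 at day 42 over day 4 (1.00, adjusted p = 0.0613) then passed no longer.

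Of all genes, 1840 passed at day 14 over day 7, 960 of them higher, against 1305 under median scaling, 434 higher. At day 42 over day 14, 587 passed, 347 higher, against 463, 354 higher. Other counts that moved by over 1.5 times at day 14 over day 7 were 9606 with array weights, 3561 with the authors' table, 4930 with the compared ages alone, 2893 with quantile normalization, 6123 without the 5 arrays and 7101 without 6. At day 42 over day 14 they were 4955, 1523, 206, 954, 2152 and 2260 under the same settings. At day 42 over day 1, 4250 passed, against 8266 with array weights, 2174 with the compared ages alone, 7407 without the 5 arrays and 7701 without 6, and over any age 5051, against 12797, 8562 and 9069 under array weights and those 2. At day 4 over day 1, 10 passed, against 0 to 472 in the alternatives, and at day 7 over day 4, 1 passed, against 0 to 4547. Of the other complement genes, 10 passed at day 14 over day 7, against 5 (median scaling) to 22 (array weights), 17 at day 42 over day 1, against 10 to 24, and 0 at day 42 over day 14, against 0 to 18. The cause of these shifts was not tested.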

Other observations

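Most genes next to the members on the chromosome did not pass the tests that the members passed, nor did most of the 15893 genes tested. Passing were 1840 at day 14 over day 7, 587 at day 42 over day 14 and 4250 at day 42 over day 1. The neighbours were read after the members' values had been seen. In RefSeq's gene order C1qb, C1qc and C1qa lie side by side on mouse chromosome 4, and C4b, Cfb and C2 share a stretch of chromosome 17 within the major histocompatibility complex. Between C4b and Cfb lie 5 genes, Cyp21a1, Stk19, Dxo, Skiv2l and Nelfe, of which 0 passed limma's test at day 14 over day 7 (log2 differences of -0.39 to 0.23), at day 42 over day 14 (0.16 to 0.48) or at day 42 over day 1 (-0.75 to -0.10). Tnxb, which encodes a tenascin of the matrix and lies next to C4b, rose by 1.28 at day 14 over day 7 (limma adjusted p = 0.00432) and by 1.94 at day 42 over day 1 (adjusted p = 4.26e-05). Of 9 tested neighbours there, Tnxb was the 1 that rose, and Zbtb12, beside C2, fell by 1.04 over day 1 (adjusted p = 0.00653). Beside the C1q genes the ephrin receptor gene Epha8 fell by 1.82 at day 14 over day 7 (adjusted p = 0.00815) and by 3.18 at day 42 over day 1 (adjusted p = 2.03e-05), while no C1q gene passed either test. Beside C3, Tnfsf14, a cytokine gene, rose by 0.97 at day 42 over day 1 (limma adjusted p = 0.0192), as C3 did, and the other 2 tested neighbours did not pass.

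Factor D varied more from array to array than any of the members. The normalised log2 signal of Cfd was -3.87, -7.94, -2.92, 0.81 and -2.43 at day 4 and 7.90, 5.13, 3.97 and 2.88 at day 42. Adipoq, which encodes the fat cell hormone adiponectin and was chosen after its values were seen, was -5.19, -5.54, -2.15, 1.11 and -2.09 at day 4 and 4.92, 1.51, 0.58 and -1.68 at day 42. At each of the 5 ages the array highest for Cfd was also highest for Adipoq. The whole order of arrays was the same at days 4 and 42 and differed at days 1, 7 and 14. At day 4 Cfd on replicate 2 and Adipoq on replicates 1 and 2 were not well above background. The low end of that order is therefore uncertain, as is the order at day 1, where Cfd was well above background on 1 array. The part of fat cell RNA in the Cfd values was not tested.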
